A study of Mus musculus with 61 samples.

Results

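Collagens are the main structural proteins of the connective tissue that wraps muscle fibres, and each gene of the family encodes 1 alpha chain that assembles with others into a triple helix. Fibrillar collagens (types I, III, V and XI) build the banded fibrils of the perimysium and endomysium. Type IV collagens form the network of the basement membrane around each fibre and capillary, and type VI collagens form beaded filaments next to it. Fibril-associated collagens decorate fibrils, and short-chain and anchoring collagens (types VIII and VII) form other networks. In muscle the chains are made mainly by fibro-adipogenic progenitors, the resident fibroblast-like cells, with contributions from endothelial, mural and tendon cells.

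The collagen chain genes were taken as the rows of the count table whose symbol is "Col", a number, "a" and a number. Of 55011 genes, 44 matched, and the 32 with at least 10 counts in at least 20 of the 61 libraries are described. The study measured polyA RNA from whole mouse muscle to ask how Foxp3-expressing regulatory T cells (Tregs) shape the transcriptional response to exercise. Foxp3DTR+ mice carry Foxp3-IRES-GFP.hDTR, a diphtheria toxin receptor driven by the Foxp3 locus, so that diphtheria toxin (DT) removes Foxp3-expressing cells. Every Foxp3DTR+ and Foxp3DTR- mouse below received DT, and all of these were sampled in quadriceps.

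In the acute experiment, 3 Foxp3DTR+ and 3 Foxp3DTR- libraries were from 1 day after exercise, 2 and 2 from 7 days after it, and 2 Foxp3DTR+ and 3 Foxp3DTR- libraries from sedentary mice. In the training experiment, Foxp3DTR+ and Foxp3DTR- mice were trained for 2 weeks (EXT) or left sedentary (SED), with 3 libraries per group. In the antibody experiment, Foxp3DTR+ mice trained for 2 weeks received neutralizing anti-IFN-gamma (3 libraries) or IgG (3 libraries), injected every other day over 1 week. In the wild-type experiment, C57BL/6J mice without DT were sedentary or sampled 1, 2 or 7 days after acute exercise, and quadriceps and tibialis anterior were taken from the same 3 animals per group. The aged experiment held sedentary C57BL/6JN mice of 24 months given anti-IFN-gamma (2 libraries) or IgG (2 libraries), for which the labels name no muscle. An age is given for the aged mice only. The labels used here do not say that libraries with Foxp3DTR labels came from separate animals, so p-values measure the spread between these samples, which may in part be technical.

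Libraries held 3359683 to 14445336 counts, so a floor of 3 counts corresponds to 0.208 to 0.893 counts per 1000000 of the library's total (CPM). All 6 muscle fibre markers and all 11 fibro-adipogenic progenitor markers had counts in every library, whereas the tendon factors Scx and Mkx were at 0 in some. Foxp3 was close to undetectable in whole muscle: it was at 0 in 16 of 19 Foxp3DTR+ libraries (highest count 2) and in 7 of 14 Foxp3DTR- libraries (highest count 9), so the depletion could not be checked well from these counts. Several acute libraries stood apart. The slope of log2 CPM on log2 transcript length was -0.47 and -0.46 in the sedentary Foxp3DTR+ libraries and -0.44 and -0.46 in those of day 7, against -0.37 to -0.29 and -0.27 to -0.18 in the Foxp3DTR- libraries of the same times and -0.09 to 0.00 in all 6 libraries of day 1. The same 4 Foxp3DTR+ libraries had 20 to 23.5% mitochondrial counts and 14701 to 15306 genes detected. Acute results for the collagens and the genes that process or sense them are therefore given with this length trend kept and with a length and GC trend removed. In the training experiment the slopes of the sedentary Foxp3DTR+ libraries were 0.14, -0.27 and 0.29, and in the aged experiment slopes ran from -0.57 to 0.78.

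Collagen counts made up 0.0459 to 0.351% of a library in the 57 libraries other than the aged ones (median 0.161%), and 0.0393 to 0.108% in the 4 aged libraries. Fibrillar chains took most of them, with a median of 66.2% of collagen counts (42.1 to 81.2%), and Col1a1, Col1a2 and Col3a1 alone took a median of 60% (33.1 to 74.9%). Basement membrane chains took 15.2% (4.25 to 31.6%), beaded filament chains 13.9% (10.7 to 23.2%) and fibril-associated chains 2.97% (1.68 to 5.96%). Described genes were 10 of 11 fibrillar, 7 of 8 basement membrane, 4 of 6 beaded filament, 7 of 9 fibril-associated and 3 of 4 network and anchoring genes, and 1 of 2 others (Col28a1). All 4 transmembrane collagens stayed below the rule.

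The 12 genes below the rule were Col2a1, the cartilage fibrillar chain, Col4a6, Col6a4, Col6a5, Col9a2, Col9a3, Col10a1, Col13a1, Col17a1, Col23a1, Col25a1 and Col26a1. The genes nearest the rule on the inside were Col28a1, Col27a1 and Col9a1, with at least 10 counts in 24, 25 and 27 libraries, and those nearest on the outside were Col23a1, Col2a1 and Col13a1, with 18, 17 and 16. Requiring 31 libraries in place of 20 left 29 genes, and requiring 5 counts in place of 10 gave 36.

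Levels were compared between genes as CPM per kb of the longest coding transcript. Col3a1, the type III chain of extensible reticular fibrils, had the highest mean over the 22 groups, 71.7 CPM per kb, with group means of 19.5 (aged, IgG) to 151 (trained Foxp3DTR-). Col1a2 and Col1a1, the alpha 2 and alpha 1 chains of type I collagen, followed at 56.8 (13.4 to 90.6) and 46.9 (9.34 to 79) CPM per kb. Col1a1 was highest in sedentary wild-type tibialis anterior, 79 ± 11.9 CPM per kb (SD, n = 3), followed by the sedentary Foxp3DTR+ and Foxp3DTR- groups of the training experiment at 77.1 ± 44.6 and 72.8 ± 9.9 (n = 3 each). These 3 neighbours in the order did not differ beyond their spread.

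Below the type I and III chains the order followed assemblies only loosely. Col6a1 and Col6a2, the alpha 1 and alpha 2 chains of type VI microfibrils, averaged 24.1 and 15.3 CPM per kb, and Col6a3, the large alpha 3 chain, 4.97. Col4a2 and Col4a1, which make up the ubiquitous type IV network, averaged 16.8 and 13.9 CPM per kb, and their group means ran from 4.33 and 3.09 in Foxp3DTR+ quadriceps at day 7 of the acute experiment to 35.2 (Col4a2, trained Foxp3DTR-) and 32.2 (Col4a1, trained Foxp3DTR+ given IgG). The minor fibrillar chains Col5a2, Col5a3 and Col5a1, which regulate fibril diameter, averaged 6.17, 4.81 and 2.81 CPM per kb. Col15a1 and Col18a1, the basement membrane proteoglycan-like collagens, averaged 2.49 and 1.92.

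The remaining genes were low. Among fibril-associated collagens, Col14a1 averaged 2.09, Col22a1, a muscle-tendon junction collagen, 1.5, Col16a1 0.955 and Col12a1 0.953 CPM per kb, and Col20a1, Col9a1 and Col19a1 were at 0.39, 0.33 and 0.33. The network chains Col8a1, Col7a1 and Col8a2 averaged 1.28, 1.15 and 0.595. The restricted type IV chains Col4a3, Col4a5 and Col4a4 averaged 0.584, 0.382 and 0.335 CPM per kb, and Col6a6 averaged 0.579. Col11a2, Col11a1, Col24a1 and Col27a1, the low fibrillar chains, averaged 0.608, 0.377, 0.353 and 0.161, and Col28a1 averaged 0.379.

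**Figure D1:**
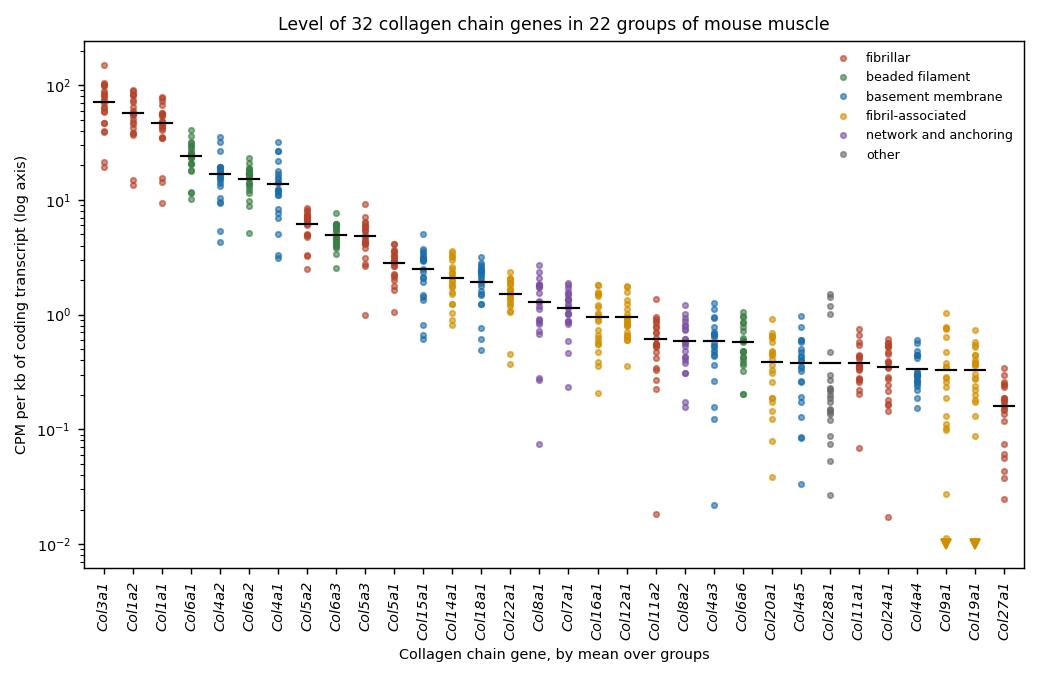
Mean level of each of the 32 collagen genes in each of the 22 groups, in CPM per kb of coding transcript on a log axis, with genes ordered by their mean over groups (black line) and coloured by kind of chain. Triangles at the bottom stand for group means of 0 (Col9a1 and Col19a1), and the type I and III chains lie above the rest, from 46.9 to 71.7 CPM per kb on average.

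Col4a1 and Col4a2 lie head to head on chromosome 8 and are transcribed in opposite directions from 1 shared stretch of DNA, which is shown because both genes recur in the results below. The stretch is from RefSeq, build GRCm38.p6, chr8:11312735-11312854, plus strand, read 5′ to 3′. The RefSeq start of Col4a2 is base 11312805 on the plus strand and that of Col4a1 is base 11312826 on the minus strand, so that their first exons share 22 bases. Capitals mark the letters CCAAT.
Col4a1-Col4a2: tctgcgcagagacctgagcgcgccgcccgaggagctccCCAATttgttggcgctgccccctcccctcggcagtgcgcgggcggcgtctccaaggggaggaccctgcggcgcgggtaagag
Searched on both strands (CCAAT or ATTGG) in windows of 250 bases before to 50 after a start, this motif was in 12289 of 32851 RefSeq promoter windows (37.4%) and in a window of 10 of the 26 described collagen genes that matched the table. The letters TATAAA (or TTTATA) were in 4473 windows (13.6%) and in those of 2 of the 26 genes, Col3a1 and Col11a2. A match of letters describes the window and says nothing on its use. Whether strand was used in counting is not given in the sources used here, so reads in the 22 shared bases could be counted for either gene, and the same holds for the 563 exonic bases that Col4a3 shares with C430014B12Rik and for the 99 and 113 exonic bases that Col5a1 shares with 2810430I11Rik and Gm13372, all on the opposite strand. The values of these genes are uncertain to that extent.

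In wild-type quadriceps, which asks how acute exercise alone moves the chains, no collagen gene passed the test at any day. Of 31 genes tested (all but Col9a1), edgeR called 0 at day 1, 0 at day 2 and 0 at day 7 at an adjusted p under 0.05, where 0.582%, 0.299% and 0.214% of all genes tested were called. At an unadjusted p under 0.05 there were 4, 3 and 4 collagen genes, among 1075, 1171 and 1033 of all 13062 genes tested. DESeq2 called 0, 1 and 0 collagen genes. A whole-muscle level falls alike when cells of a type are fewer and when each holds less of the RNA, and these cannot be told apart in any of the comparisons.

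Col3a1 in wild-type quadriceps was 388, 373 and 300 CPM in sedentary mice, 327, 211 and 250 at day 1, 337, 539 and 381 at day 2 and 401, 614 and 661 at day 7. All 3 libraries of day 7 lay above all sedentary ones in CPM. Its log2 fold change at day 7 was 0.68 ± 0.18 (SE), the smallest p among the collagens there, with an adjusted p of 0.181. Col1a1 (0.33 ± 0.16, adjusted p = 0.67), Col4a1 (0.28 ± 0.12, adjusted p = 0.584) and Col6a1 (0.15 ± 0.13, adjusted p = 0.86) had values above 0 as well, and 23 of 31 genes did, with a median log2 fold change of 0.16 against -0.00 over all genes tested. Without animal 08 at day 7, 1 collagen gene was called higher. The embryonic and neonatal myosin genes Myh3 and Myh8, markers of regenerating fibres, were called higher at day 7, while the fibro-adipogenic progenitor markers summed to 1449 to 1790 CPM at day 7, against 1981 to 2666 CPM in sedentary mice, and their part in the collagen values was not tested.

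At day 1 the balance in quadriceps was the other way, with 21 of 31 log2 fold changes below 0 and a median of -0.25 against -0.01 over all genes. The smallest p was that of Col1a2, at 231, 158 and 200 CPM at day 1, against 322, 230 and 260 CPM in sedentary mice (log2 fold change -0.45 ± 0.15, adjusted p = 0.305). Col1a1, Col3a1, Col4a1 and Col6a1 stood at -0.33, -0.41, -0.25 and -0.16, with adjusted p of 0.637, 0.543, 0.632 and 0.868. None of these passed the test.

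Col8a1, the short-chain collagen of vascular and endothelial matrices, had the smallest p at day 2. It was 4.9, 5.94 and 3.11 CPM in sedentary quadriceps, 12.2, 4.99 and 10.9 at day 1, 13.2, 16.7 and 11.8 at day 2 and 2.8, 13.3 and 10.8 at day 7. The libraries of day 2 lay apart from the sedentary ones, while day 1 and day 7 each overlapped them through 1 library. The log2 fold change at day 2 was 1.60 ± 0.45 with an adjusted p of 0.196 in edgeR, and it was the 1 gene that DESeq2 called. The day 2 values of Col1a1, Col3a1, Col4a1 and Col6a1 were -0.07 ± 0.16, 0.26 ± 0.18, -0.33 ± 0.13 and 0.16 ± 0.13, with adjusted p of 0.949, 0.745, 0.403 and 0.782.

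In wild-type tibialis anterior Col1a1, Col3a1, Col4a1 and Col4a2 were lower at day 1 without passing the test. Of 30 genes tested (all but Col19a1 and Col28a1), edgeR called 0 at day 1, 0 at day 2 and 0 at day 7, where 0.0552%, 0.063% and 0.0158% of all genes tested were called. At day 1, 25 of 30 log2 fold changes were below 0, with a median of -0.52 against -0.00 over all 12692 genes, and 12 of the 30 had an unadjusted p under 0.05, as did 1034 of all genes. DESeq2 called 7 collagen genes lower at day 1.

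The smallest p at day 1 was that of Col4a2, at 103, 99.2 and 102 CPM, against 188, 178 and 155 CPM in sedentary tibialis anterior (log2 fold change -0.74 ± 0.14, adjusted p = 0.0633). Col4a1 was 73.1, 73.9 and 73.8 CPM at day 1, against 106, 136 and 115 CPM in sedentary mice (-0.65 ± 0.15, adjusted p = 0.111). Col1a1 was 303, 207 and 254 CPM, against 449, 546 and 409 CPM (-0.84 ± 0.19, adjusted p = 0.111). In these 3 genes no library of day 1 reached the lowest sedentary one.

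Col3a1 was 226, 171 and 263 CPM at day 1, against 302, 366 and 310 CPM in sedentary tibialis anterior (-0.53 ± 0.13, adjusted p = 0.217), again with no overlap. Col6a1 stood at -0.36 ± 0.23 (adjusted p = 0.75). Markers of connective tissue cells moved with these values: the summed level of the 11 fibro-adipogenic progenitor markers was 1292 to 1745 CPM at day 1, against 1874 to 2034 CPM in sedentary mice, and 10 of 11 had log2 fold changes below 0 with 0 called. The 9 tendon markers summed to 259 to 351 CPM at day 1, against 391 to 498 CPM. The endothelial markers summed to 353 to 401 CPM, against 420 to 450 CPM, the mural markers to 473 to 492 CPM, against 527 to 548 CPM, and the macrophage markers to 65.4 to 79.5 CPM, against 82.5 to 112 CPM, with 6 of 8 log2 fold changes below 0 in each of these 3 lists and 0 called. The part of these cells in the collagen values was not tested.

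At the later days, Col4a2 at day 2 and Col4a1 at days 2 and 7 had log2 fold changes below 0 without passing the test. Col4a2 had the smallest p at day 2 (-0.61 ± 0.14, adjusted p = 0.154), with 107, 141 and 84.7 CPM, against 188, 178 and 155 CPM in sedentary mice. Col4a1 had the smallest p at day 7 (-0.52 ± 0.15, adjusted p = 0.603), with 85, 90.3 and 62.8 CPM, against 106, 136 and 115 CPM. Unadjusted p-values under 0.05 numbered 5 at day 2 and 2 at day 7, among 956 and 713 of all 12692 genes tested. DESeq2 called 1 and 0 collagen genes. Without animal 14 at day 2, edgeR called 2 genes lower. Col1a1, Col3a1 and Col6a1 stood at -0.50, 0.07 and -0.13 at day 2 (adjusted p 0.499, 0.956 and 0.951) and at -0.18, 0.20 and -0.14 at day 7 (adjusted p 0.997, 0.961 and 0.997), and Col4a1 at -0.52 at day 2 (adjusted p = 0.309).

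The difference between the muscles' responses was tested directly, as the quadriceps response minus the tibialis anterior response. Of 32 genes, edgeR called 0 at day 1, 0 at day 2 and 0 at day 7, where 0.0434%, 0.00724% and 0.0796% of all genes tested were called. Col4a1 had the smallest p at day 7, with a difference of 0.81 ± 0.20 on the log2 scale (adjusted p = 0.214), since its value was 0.28 in quadriceps and -0.52 in tibialis anterior. Unadjusted p-values under 0.05 numbered 2, 1 and 6, among 758, 740 and 733 of all 13819 genes tested. DESeq2 called 0, 0 and 1 collagen genes. Both responses rest on the same animals, and with the animal as a block 0 were called at day 1, 0 at day 2 and 0 at day 7.

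At rest the muscles differed in 2 collagen genes, both lower in quadriceps than in tibialis anterior. Of 32 genes tested, edgeR called 0 higher and 2 lower (Col9a1 and Col1a1), where 1.3% of all genes tested were called in either direction and 0.716% lower. Col9a1, a fibril-associated chain of cartilage type IX collagen, had 0, 0 and 0.13 CPM in sedentary quadriceps, against 2.05, 3.62 and 3.38 CPM in sedentary tibialis anterior. That is 1 count against 60, a count ratio of 0.0156 (exact 95% interval 0.000389 to 0.0904, for counting error only), and its adjusted p was 0.013. After exercise Col9a1 was 1.47 to 4.62 CPM in tibialis anterior, and 1.58, 1.28 and 1.53 CPM in quadriceps at day 1.

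Col1a1 was 318, 225 and 261 CPM in sedentary quadriceps, against 449, 546 and 409 CPM in sedentary tibialis anterior, with no overlap (log2 fold change -0.81 ± 0.20, adjusted p = 0.032). With the animal as a block, since each animal gave both muscles, 3 genes were called, Col4a2 being added, and the adjusted p of Col1a1 was 0.00242. Col3a1, Col4a1 and Col6a1 stood at 0.11, -0.35 and -0.04 (adjusted p 0.907, 0.341 and 0.978). Col1a1 lost its call without animal 06 or 07 in quadriceps or without animal 05, 06 or 07 in tibialis anterior (adjusted p up to 0.185), and Col9a1 lost its call without animal 05 or 06 in quadriceps (adjusted p up to 0.0862). The ratio of Col3a1 to Col1a2 counts, chosen after its values were seen, was 1.2, 1.62 and 1.15 in sedentary quadriceps, against 0.87, 0.822 and 0.855 in sedentary tibialis anterior.

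**Figure D2:**
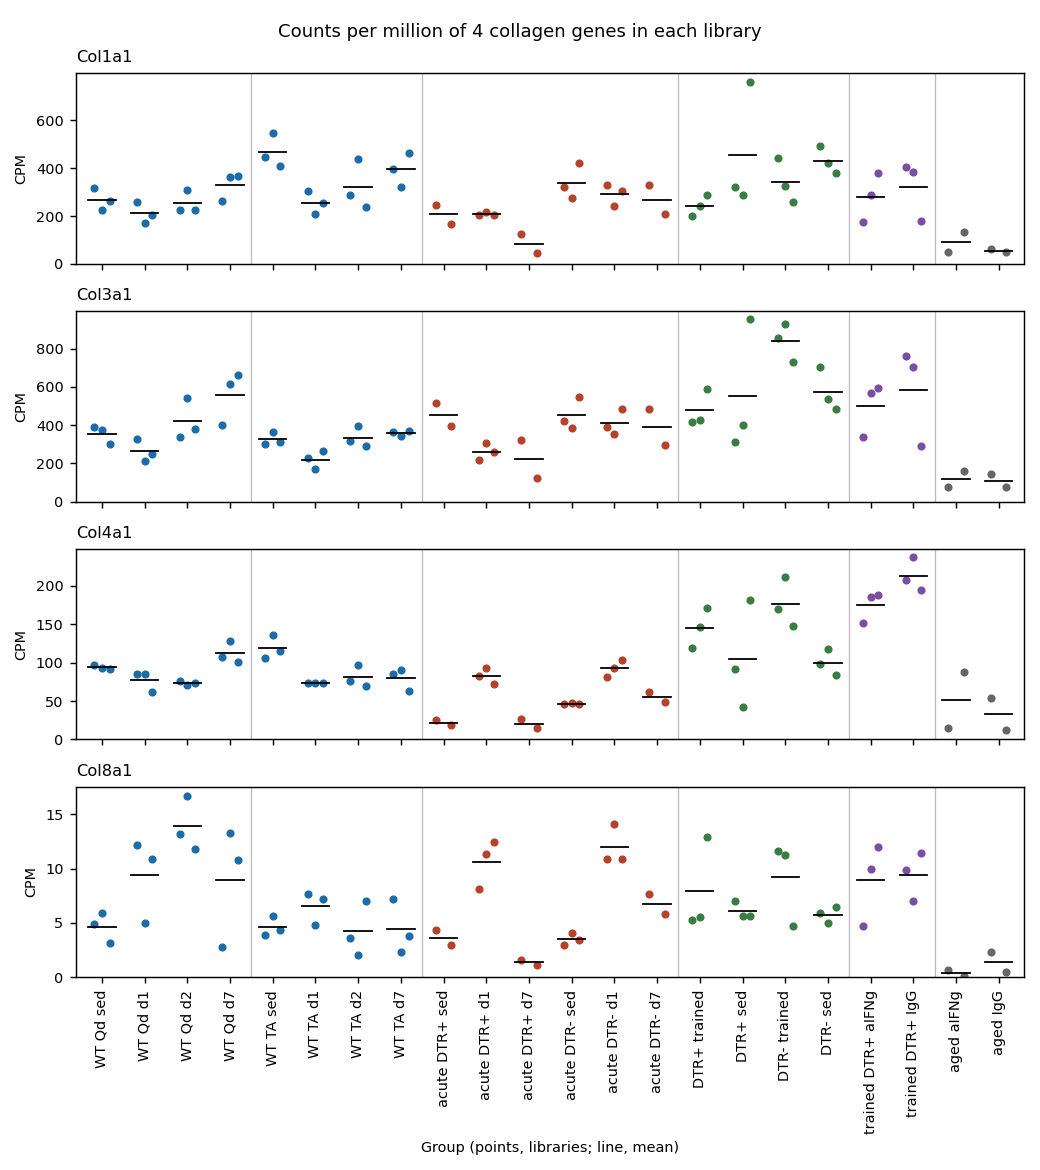
Level in CPM of Col1a1, Col3a1, Col4a1 and Col8a1 in every library (points) with the group mean (line), by experiment. Col1a1 is lower in sedentary quadriceps (225 to 318 CPM) than in sedentary tibialis anterior (409 to 546 CPM), and Col4a1 is at 14.7 to 26.3 CPM in the Foxp3DTR+ libraries of the acute experiment that were sedentary or from day 7.

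In the acute experiment, Foxp3DTR+ quadriceps at day 7 had lower levels of chains of most kinds than Foxp3DTR- quadriceps at day 7. Of 32 genes tested, edgeR called 0 higher and 11 lower, where 25.3% of all genes tested were called in either direction and 14% lower. In all, 28 of 32 log2 fold changes were below 0, with a median of -0.85 (also -0.85 with a gene listed at 0 put at its bound), against -0.10 over all genes. With the length and GC trend removed, 4 genes were called lower, where 10.9% of all genes tested were lower, a similar share. The median was then -0.30, against -0.13 over all genes. When only these 2 groups were fitted, 4 were called. Trimmed-mean scaling places the median gene elsewhere than library totals do in this experiment: the median log2 fold change of all genes moved by -0.28 here with library totals, and the collagens called were then 0 higher and 12 lower. The share of all genes called with library totals is not given. Counts of calls under that setting, here and below, are therefore no result about the collagens.

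Among the fibrillar chains at day 7, Col1a1 was 124 and 44.3 CPM in Foxp3DTR+ mice, against 328 and 207 CPM in Foxp3DTR- mice (log2 fold change -1.37 ± 0.33, adjusted p = 0.00374). Col5a3, a minor chain of type V fibrils, was 7.9 and 4.16 CPM in Foxp3DTR+ mice, against 31 and 20.2 CPM in Foxp3DTR- mice (-1.77 ± 0.38, adjusted p = 0.00147). The groups did not overlap in either gene. With the trend removed the values were -0.63 (adjusted p = 0.18) for Col1a1 and -0.96 (adjusted p = 0.0623) for Col5a3. Col3a1 was 322 and 123 CPM in Foxp3DTR+ mice, against 485 and 298 CPM in Foxp3DTR- mice, which overlap, and did not pass (-0.52 ± 0.31, adjusted p = 0.23).

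Type IV and VI chains were among the called genes. Col4a1 was 26.3 and 14.7 CPM in Foxp3DTR+ mice, against 61.5 and 48.7 CPM in Foxp3DTR- mice (-1.13 ± 0.23, adjusted p = 0.00126). Col6a2 was 31.3 and 16.8 CPM, against 91.6 and 64.1 CPM (-1.40 ± 0.28, adjusted p = 0.000942), and Col6a1 was 54.2 and 39.2 CPM, against 101 and 96.1 CPM (-0.79 ± 0.19, adjusted p = 0.00368). The 3 genes showed no overlap between groups. With the trend removed Col6a2 passed (-0.83, adjusted p = 0.0341), whereas Col4a1 (-0.43, adjusted p = 0.199) and Col6a1 (-0.11, adjusted p = 0.713) did not.

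Col8a1 moved little with the trend. It was 1.56 and 1.17 CPM in Foxp3DTR+ mice at day 7, against 7.68 and 5.8 CPM in Foxp3DTR- mice, a log2 fold change of -1.99 ± 0.44 (adjusted p = 0.00213) with the trend kept and -2.07 (adjusted p = 0.00215) with it removed. Col9a1 was at 0 in both Foxp3DTR+ libraries, against 2.63 and 2.23 CPM in the Foxp3DTR- libraries, 0 counts against 32, which is at least 13.2-fold lower for a floor of 3 counts over the group (adjusted p = 0.0158 with the trend kept and 0.0279 with it removed). Col11a2, with 2 counts against 27, also passed with the trend kept and removed.

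Col4a1, Col5a3, Col6a2 and Col8a1 kept their calls without any 1 of the 4 libraries (adjusted p up to 0.0327). Without Foxp3DTR+ library 3, 4 genes were called, and without Foxp3DTR- library 1, 6 were called: Col1a1 (adjusted p up to 0.0589), Col4a2, Col5a1, Col11a2 and Col22a1 lost their calls without either, Col6a1 without Foxp3DTR+ library 3 (0.0729) and Col9a1 without Foxp3DTR+ library 2 or 3 (0.0736). Summed markers of several cell types were lower as well. The fibro-adipogenic progenitor markers summed to 2197 to 2237 CPM in Foxp3DTR+ mice, against 2994 to 3888 CPM in Foxp3DTR- mice, with 5 of 11 called lower and 0 higher. Much of this sum came from Gsn, at a mean of 886 CPM against 1861 CPM. Gsn did not pass with the trend removed (-0.22, adjusted p = 0.489). The tendon markers summed to 348 to 455 CPM, against 664 to 716 CPM, with 3 of 9 called lower. The endothelial markers summed to 164 to 170 CPM in Foxp3DTR+ mice, against 249 to 303 CPM in Foxp3DTR- mice, with 3 of 8 called lower (Cldn5, Tie1 and Pecam1), and the Schwann cell markers to 69.5 to 92.3 CPM, against 120 to 177 CPM, with 2 of 5 tested called lower (Prx and Mbp). Of 8 mural markers 1 was called higher and 3 lower. Of 6 muscle fibre markers 4 were called higher and 1 lower, while their sums, 164954 to 174189 CPM, against 168864 to 180115 CPM, overlapped. The 8 macrophage markers went the other way, at 291 to 524 CPM, against 207 to 248 CPM, with 4 called higher and 1 lower. With the trend removed, the progenitor markers Cd34 and Smoc2, the tendon markers Chad and Fmod, and Cldn5, Prx and Mbp stayed called lower. The other progenitor, tendon, endothelial and mural markers called lower did not pass. The mural marker Rgs5 and the macrophage markers C1qb and Mrc1 stayed higher and C1qa lower, while Cd68 and Lyz2 did not pass. All called muscle fibre markers kept their calls. The part of these cells in the result, and that of the length trend and the mitochondrial share, was not tested beyond the trend-removed values.

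In sedentary mice of the acute experiment, edgeR called 0 collagen genes higher and 6 lower in Foxp3DTR+ than in Foxp3DTR- quadriceps, where 26.6% of all genes tested were called in either direction, 12.1% higher and 14.5% lower. A share of 6 of 32 is below the background for either direction and somewhat above that for lower genes. The 32 log2 fold changes had a median of -0.15 with the trend kept, against -0.06 over all genes. With it removed the median was 0.27, against -0.08 over all genes. With the trend removed, 1 gene was called higher (Col6a3) and 2 lower (Col4a3 and Col7a1). Over all genes tested 8.53% were then higher and 11% lower. With library totals, 8 were called lower, without a share over all genes to set beside it, and the median of all genes moved by -0.31.

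Col7a1, the anchoring fibril chain, had the smallest p: it was 1.73 and 2.62 CPM in sedentary Foxp3DTR+ mice, against 5.45, 11.6 and 11 CPM in sedentary Foxp3DTR- mice (log2 fold change -1.79 ± 0.43, adjusted p = 0.00376; -1.28 and 0.0317 with the trend removed). It kept its call without any 1 of the 5 libraries (adjusted p up to 0.0497). Col4a3, a restricted type IV chain, had 3 counts against 172, or 0.37 and 0 CPM, against 1.85, 6.38 and 11.6 CPM, a count ratio of 0.029 (exact 95% interval 0.00593 to 0.0863; adjusted p = 0.00646). The Foxp3DTR+ libraries lay below the Foxp3DTR- ones in both genes.

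Col4a1 was 25.3 and 18.5 CPM in sedentary Foxp3DTR+ mice, against 45.7, 47.9 and 45.7 CPM in sedentary Foxp3DTR- mice (-0.78 ± 0.22, adjusted p = 0.0111), and -0.26 (adjusted p = 0.418) with the trend removed. Col18a1, the endostatin precursor, was 1.36 and 4.12 CPM, against 7.41, 8.37 and 9.14 CPM (-1.29 ± 0.42, adjusted p = 0.0285), and Col22a1 was 4.94 and 2.99 CPM, against 11.3, 9.62 and 13.5 CPM (-1.22 ± 0.39, adjusted p = 0.0265). The type I and III chains did not pass: Col3a1 stood at 0.32 ± 0.27 (adjusted p = 0.415), Col1a1 at -0.40 ± 0.29 (adjusted p = 0.339) and Col6a1 at -0.21 ± 0.17 (adjusted p = 0.384). Col24a1, with 2 counts against 46, was the last of the 6 (adjusted p = 0.0412).

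Without sedentary Foxp3DTR+ library 3, 2 genes were called, and without sedentary Foxp3DTR- library 3, 3 were called. Col4a1 and Col4a3 lost their calls without Foxp3DTR+ library 3 (adjusted p of 0.15 and 0.0647), Col22a1 and Col24a1 lost theirs without library 3 of either genotype (adjusted p up to 0.201 and 0.22), Col24a1 also without Foxp3DTR- library 2, and Col18a1 lost its call without Foxp3DTR+ library 2 or Foxp3DTR- library 2 or 3 (adjusted p up to 0.28). The fibro-adipogenic progenitor markers summed to 1999 to 2199 CPM in sedentary Foxp3DTR+ mice, against 3103 to 3530 CPM in sedentary Foxp3DTR- mice, with 1 of 11 called higher and 4 lower. Much of this sum came from Gsn, at a mean of 850 CPM against 1808 CPM. Gsn did not pass with the trend removed (-0.14, adjusted p = 0.625). The endothelial markers summed to 150 to 157 CPM, against 185 to 248 CPM, but on the fitted scale of the tests 5 of 8 were above 0, with a median log2 fold change of 0.21, 0 called higher and 2 lower (Tie1 and Cldn5). Of 8 mural markers 1 was called higher and 2 lower, with a median of -0.85. With the trend removed, the progenitor markers Cd34, Gpx3 and Pi16 and the endothelial marker Tie1 stayed lower and the mural marker Rgs5 higher. The other called markers of these lists did not pass. The part of these cells in the result was not tested.

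At day 1 the genotypes were not told apart. Of 32 genes tested edgeR called 0, where 0% of all genes tested were called, and DESeq2 called 0. At an unadjusted p under 0.05 there were 4 collagen genes, among 280 genes in all, and the smallest p was that of Col6a2 (adjusted p = 1). Col1a1 was 203, 215 and 205 CPM in Foxp3DTR+ mice at day 1, against 328, 243 and 305 CPM in Foxp3DTR- mice at day 1, without overlap (-0.47 ± 0.26, adjusted p = 1). Col3a1, Col4a1 and Col6a1 stood at -0.63 ± 0.25, -0.15 ± 0.18 and -0.37 ± 0.15, each with an adjusted p of 1. All 6 libraries of day 1 had length slopes of -0.09 to 0.00.

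Within Foxp3DTR- mice, Col8a1 and Col4a1 were called higher and Col1a2 lower at day 1 against rest. Of 32 genes edgeR called 2 higher and 1 lower, where 16.4% of all genes tested were called, 8.16% higher and 8.24% lower. The share of collagens called thus lay below that background. Col8a1 was 10.9, 14.1 and 10.9 CPM at day 1, against 2.94, 4.08 and 3.46 CPM at rest (log2 fold change 1.52 ± 0.32, adjusted p = 0.00261; 1.39 and 0.00632 with the trend removed). Col4a1 was 81.8, 93.2 and 104 CPM at day 1, against 45.7, 47.9 and 45.7 CPM at rest (0.75 ± 0.18, adjusted p = 0.00832; 0.36 and 0.201 with the trend removed). Neither gene overlapped between times, and both kept their calls without any 1 of the 6 libraries (adjusted p up to 0.0489).

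Col1a2 was 356, 274 and 321 CPM at day 1, against 506, 390 and 535 CPM at rest in Foxp3DTR- mice (-0.84 ± 0.25, adjusted p = 0.0254). It lost its call without sedentary library 1 or 3 or day 1 library 2 or 3 (adjusted p up to 0.0935). Col1a1, Col3a1 and Col6a1 stood at -0.47, -0.39 and -0.01 (adjusted p 0.242, 0.31 and 0.989). With library totals 4 were called higher and 0 lower, without a share over all genes, the median of all genes moving by 0.25. With the trend removed 1 was called higher and 2 lower, where 5.9% of all genes tested were higher and 5.65% lower. Col1a2 stood at -0.59 with library totals, where it was not called, and at -1.11 (adjusted p = 0.00662) with the trend removed, and its CPM at day 1 lay below rest in every library. Of 11 fibro-adipogenic progenitor markers Dcn and Lum were called lower and 8 were below 0, with sums of 3011 to 3639 CPM at day 1, against 3103 to 3530 CPM at rest, which overlap. Of 9 tendon markers Tnmd and Kera were called lower and 7 were below 0, with sums of 576 to 659 CPM, against 568 to 808 CPM. With library totals 7 of the 11 fibro-adipogenic progenitor markers were above 0 and Dcn alone was called lower. With the trend removed Dcn, Tnmd and Kera stayed called lower and Lum did not pass. The mural markers summed to 359 to 404 CPM at day 1, against 213 to 262 CPM at rest, and the endothelial markers to 290 to 310 CPM, against 185 to 248 CPM, and the part of these cells in the result was not tested.

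At day 7 Foxp3DTR- mice were not told apart from rest: edgeR called 0 of 32 genes, where 0.00702% of all genes tested were called, and DESeq2 called 0. At an unadjusted p under 0.05 there were 2 collagen genes, among 1105 of all 14245 genes tested. The smallest p was that of Col9a1 (adjusted p = 0.381). Col8a1 at day 7 was 7.68 and 5.8 CPM, against 2.94, 4.08 and 3.46 CPM at rest, without overlap (0.83 ± 0.36, adjusted p = 0.594; a gene chosen here after its values were seen). Col1a1, Col3a1, Col4a1 and Col6a1 stood at -0.45, -0.31, 0.14 and -0.23 (adjusted p 0.781, 0.866, 0.938 and 0.823).

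Within Foxp3DTR+ mice, day 1 against rest called 9 collagen genes higher and 4 lower of 32, where 42.4% of all genes tested were called, 24.3% higher and 18.1% lower. With the trend kept, the share of collagens called, 13 of 32, lay near that background. The median of the 32 log2 fold changes was then 0.05 (also 0.05 with a gene at 0 put at its bound), against 0.28 over all genes. With the trend removed the median was -0.66, against 0.26 over all genes. The calls were then 4 higher and 13 lower, where 21.4% of all genes tested were higher and 15.4% lower. That lower share lay above the background and the higher share below it. With library totals the calls were 10 higher and 2 lower, without a share over all genes, the median of all genes moving by 0.53.

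Col3a1 and Col1a2 were lower at day 1 in Foxp3DTR+ mice, and called, under each of these settings. Col3a1 was 216, 304 and 260 CPM at day 1, against 514 and 394 CPM at rest (-1.34 ± 0.27, adjusted p = 0.000494; -1.86 with the trend removed and -0.80 with library totals). Col1a2 was 225, 286 and 253 CPM, against 471 and 401 CPM (-1.31 ± 0.27, adjusted p = 0.000634; -2.10 and -0.77). No library of day 1 reached those at rest, and both calls stood without any 1 library (adjusted p up to 0.0121). Col1a1 was 203, 215 and 205 CPM, against 247 and 168 CPM, which overlap (-0.53 ± 0.29, adjusted p = 0.141).

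The type IV chains Col4a1, Col4a2 and Col4a3 were higher with the trend kept, while Col4a4 and Col4a5 stood at -0.42 and -0.36 and did not pass. Col4a1 was 82.1, 92.6 and 72.7 CPM at day 1, against 25.3 and 18.5 CPM at rest (1.37 ± 0.22, adjusted p = 3.74e-05), and Col4a2 was 89.5, 84 and 99.1 CPM, against 35.4 and 33.3 CPM (0.87 ± 0.24, adjusted p = 0.00602). The groups stood well apart in CPM in both genes. With the trend removed the values were 0.43 (adjusted p = 0.112) for Col4a1 and -0.12 (adjusted p = 0.682) for Col4a2, so neither was called and the sign of Col4a2 turned. Col4a2 also lost its call without sedentary library 3 (adjusted p = 0.0585).

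Col7a1 was 18.9, 11.8 and 11.4 CPM at day 1, against 1.73 and 2.62 CPM at rest in Foxp3DTR+ mice (2.15 ± 0.43, adjusted p = 0.000372; 1.04 and 0.0489 with the trend removed). Col18a1 was 15.2, 12 and 11.7 CPM, against 1.36 and 4.12 CPM (1.71 ± 0.42, adjusted p = 0.00264; 0.78 and 0.141 with the trend removed; 0.0628 without sedentary library 2). Col8a1 was 8.14, 11.3 and 12.4 CPM, against 4.32 and 2.99 CPM (1.00 ± 0.36, adjusted p = 0.0319; 0.99 and 0.0359 with the trend removed), a gene named here after its values were seen, and it lost its call without sedentary library 3 or day 1 library 2 or 3 (adjusted p up to 0.22). These 3 genes did not overlap between times.

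Of the other called genes, Col19a1 had 78 counts at day 1, against 0 at rest, which is at least 12.2-fold higher for a floor of 3 counts over the group. Col4a3 and Col24a1 had count ratios of 30.3 (exact 95% interval 10.2 to 148) and 15.7 (4.18 to 132), with 3 and 2 counts at rest. Col22a1 was also higher, and Col6a3 and Col5a2 were lower, but the last 2 were not called with library totals (-0.58 and -0.29), and Col22a1 (0.62) and Col24a1 (2.94) were not called with the trend removed. Calls were lost without sedentary library 3 for Col4a3, Col22a1 and Col24a1, without sedentary library 2 for Col5a2 and Col6a3, without either for Col19a1 and without day 1 library 2 for Col24a1 (adjusted p up to 0.181). Col6a1 did not pass (-0.17 ± 0.17, adjusted p = 0.442). The endothelial markers summed to 274 to 339 CPM at day 1, against 150 to 157 CPM at rest, and the fibro-adipogenic progenitor markers to 2397 to 3914 CPM, against 1999 to 2199 CPM. Of the 11 progenitor markers 4 were called higher and 3 lower, where 24.3% of all genes tested were higher and 18.1% lower. Much of the progenitor sum came from Gsn, at a mean of 1941 CPM against 850 CPM, while Dcn was at 585 CPM against 850 CPM. With the trend removed, the progenitor markers Cd34 and Gpx3 stayed higher and Dcn, Lum and Mfap5 lower, while Gsn and Pi16 did not pass. The part of these cells in the result was not tested.

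**Figure D3:**
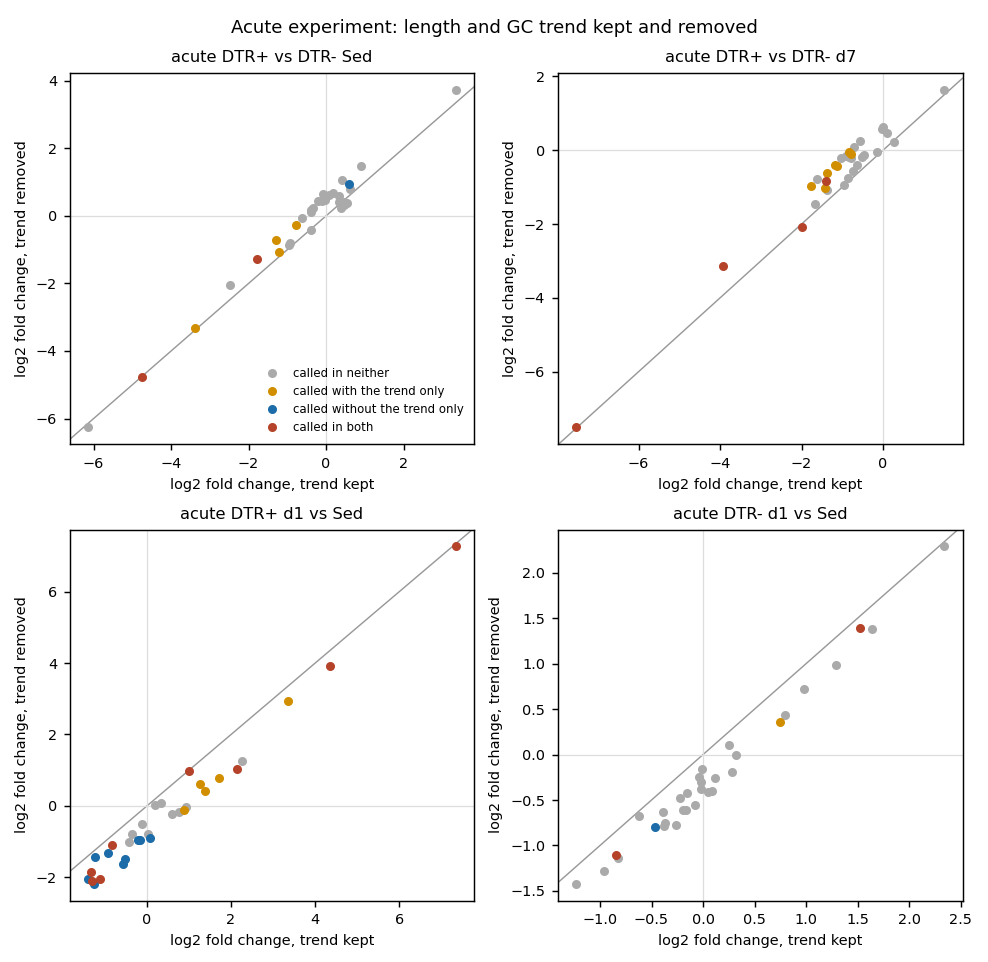
Log2 fold change of the 32 collagen genes in 4 comparisons of the acute experiment, with the trend over transcript length and GC content kept (x axis) and removed (y axis). Points are genes, coloured by whether their adjusted p was under 0.05, and the diagonal marks equal values: in Foxp3DTR+ mice at day 1 against rest the median was 0.05 with the trend kept and -0.66 with it removed.

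At day 7 against rest within Foxp3DTR+ mice, edgeR called 0 collagen genes higher and 3 lower of 32, where 1.01% of all genes tested were called in either direction and 0.379% lower. Col1a1 was 124 and 44.3 CPM at day 7, against 247 and 168 CPM at rest (-1.42 ± 0.33, adjusted p = 0.039). Col6a1 was 54.2 and 39.2 CPM, against 73.8 and 76.4 CPM (-0.81 ± 0.19, adjusted p = 0.0414), and Col5a3 was 7.9 and 4.16 CPM, against 16.5 and 16.2 CPM (-1.55 ± 0.38, adjusted p = 0.05 when rounded, just under the threshold). The groups did not overlap in these genes. The length slopes of the groups were alike, and with the trend removed Col1a1 (-1.37, adjusted p = 0.0445) and Col6a1 (-0.81, adjusted p = 0.0374) passed.

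These calls rest on few libraries. Without day 7 library 3 or sedentary library 2, 0 genes were called, without sedentary library 3, 1 was called, and without day 7 library 2, 9 were called, all lower. With library totals, and when only these 2 groups were fitted, 0 were called. Col3a1 was 322 and 123 CPM at day 7, against 514 and 394 CPM at rest (-1.15 ± 0.31, adjusted p = 0.0768), and Col4a1 stood at -0.22 ± 0.24 (adjusted p = 0.755). The tendon markers summed to 348 to 455 CPM at day 7, against 528 to 572 CPM at rest, with 7 of 9 log2 fold changes below 0 and 0 called. The macrophage markers summed to 291 to 524 CPM, against 202 to 235 CPM, with 8 of 8 above 0 and 0 called, and the Schwann cell gene Prx was called lower. The part of these cells in the result was not tested.

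The difference between the genotypes' responses was added after the results above were seen. For day 1, the Foxp3DTR+ response minus the Foxp3DTR- response passed for 2 of 32 genes, both above 0, where 15.3% of all genes tested were called (8.8% higher and 6.54% lower), a larger share than 2 of 32. Col7a1 had a difference of 2.41 ± 0.53 on the log2 scale (adjusted p = 0.0038; 1.82 and 0.0271 with the trend removed) and kept its call without any 1 of 15 libraries. In Foxp3DTR- mice it was 6.63, 10.1 and 11.2 CPM at day 1, against 5.45, 11.6 and 11 CPM at rest, so its level was alike at both times there. Col4a3 had a difference of 4.72 ± 1.43 (adjusted p = 0.029; 0.0411 with the trend removed), which was lost in 4 of 15 refits (adjusted p up to 0.125): those without sedentary library 3 of either genotype or without day 1 library 2 of either. The count was 3 without Foxp3DTR- day 1 library 3, 4 without sedentary Foxp3DTR+ library 2, 5 without sedentary Foxp3DTR- library 1 and 6 without either Foxp3DTR+ library of day 7, which are in the fit but not in the contrast. For day 7, 0 of 32 genes passed in edgeR, where 0.0772% of all genes tested were called. The smallest adjusted p were 0.134 (Col9a1) and 0.143 (Col8a1, -2.36 ± 0.57). An unadjusted p under 0.05 was found for 11 of the 32, for which the share over all genes is not given. Without Foxp3DTR+ day 7 library 2, 4 were called.

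In the training experiment, trained and sedentary Foxp3DTR- mice were not told apart in any collagen gene by edgeR: 0 of 32 were called, where 0.103% of all genes tested were called. At an unadjusted p under 0.05 there were 6, among 653 of all 12579 genes tested, and DESeq2 called 1 collagen gene. The smallest p was that of Col28a1, a collagen with von Willebrand factor A domains known from peripheral nerve, at 6.79, 6.09 and 6.21 CPM in trained mice, against 0.843, 2.21 and 0.338 CPM in sedentary mice (log2 fold change 2.45 ± 0.64, adjusted p = 0.36). The groups did not overlap, and the gene was the 1 that DESeq2 called. The 6 Schwann cell markers summed to 147 to 157 CPM in trained mice, against 158 to 197 CPM in sedentary mice. Col4a1 was 170, 212 and 148 CPM in trained mice, against 98.2, 118 and 83.3 CPM in sedentary mice (0.76 ± 0.30, adjusted p = 0.898), and Col4a2 was 238, 249 and 193 CPM, against 131, 130 and 99 CPM (0.86 ± 0.30, adjusted p = 0.815).

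Col3a1 in Foxp3DTR- mice was 854, 930 and 730 CPM after training, against 703, 536 and 485 CPM in sedentary mice (0.48 ± 0.28, adjusted p = 0.999), while Col1a1 was 442, 325 and 258 CPM, against 495, 421 and 379 CPM, which overlap (-0.40 ± 0.26, adjusted p = 0.999). Col6a1 stood at 0.32 ± 0.23 (adjusted p = 0.999). The 8 endothelial markers summed to 487 to 617 CPM in trained mice, against 346 to 370 CPM in sedentary mice, with 8 of 8 log2 fold changes above 0 and 0 called. Their part in the type IV values was not tested.

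In Foxp3DTR+ mice, 1 collagen gene was called lower in trained than in sedentary mice. Of 32 genes edgeR called 0 higher and 1 lower, where 2.21% of all genes tested were called in either direction and 1.23% lower. A count of 1 in 32 lay close to the share over all genes. Col5a1, the chain common to type V fibrils, was 18.2, 14.2 and 18.3 CPM in trained mice, against 27.3, 24.7 and 51.2 CPM in sedentary mice, without overlap (-1.03 ± 0.24, adjusted p = 0.0295). Col1a1 was 200, 244 and 286 CPM in trained mice, against 320, 289 and 762 CPM in sedentary mice, also without overlap, and did not pass (-0.92 ± 0.27, adjusted p = 0.0781). DESeq2 called both.

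The sedentary group of this comparison is uneven, since its library 3 was high in fibrillar chains and its library 2 had a length slope of -0.27. The call of Col5a1 was lost without sedentary library 3 (-0.71, adjusted p = 0.124), without trained library 1, 2 or 3 (adjusted p of 0.0778, 0.22 and 0.06), without sedentary libraries 2 and 3 together, and with library totals (adjusted p = 0.065), whereas 3 genes were called without sedentary library 1 or without sedentary library 2. Col3a1 was 414, 426 and 589 CPM in trained mice, against 310, 398 and 952 CPM in sedentary mice (-0.23 ± 0.28, adjusted p = 0.788). Col4a1 stood at 0.49 ± 0.30 (adjusted p = 0.522) and Col6a1 at -0.13 ± 0.23 (adjusted p = 0.867). The fibro-adipogenic progenitor markers summed to 3150 to 3275 CPM in trained mice, against 3266 to 3846 CPM in sedentary mice, and their part in the result was not tested.

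Between trained mice, Foxp3DTR+ against Foxp3DTR-, 26 of 32 log2 fold changes were below 0, with a median of -0.45 against -0.00 over all genes, but edgeR called 0, where 0.89% of all genes tested were called. At an unadjusted p under 0.05 there were 9, among 981 of all 12579 genes tested, and DESeq2 called 2 collagen genes. Col5a1 had the smallest p, at 18.2, 14.2 and 18.3 CPM in trained Foxp3DTR+ mice, against 35.3, 39.6 and 29.9 CPM in trained Foxp3DTR- mice (-0.99 ± 0.24, adjusted p = 0.0638). Col3a1 was 414, 426 and 589 CPM, against 854, 930 and 730 CPM (-0.76 ± 0.28, adjusted p = 0.37), and Col6a1 was 109, 102 and 129 CPM, against 159, 178 and 170 CPM (-0.52 ± 0.23, adjusted p = 0.566). In these 3 genes every trained Foxp3DTR+ library lay below every trained Foxp3DTR- one.

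Col1a1 and Col4a1 in the same comparison stood at -0.43 ± 0.26 (adjusted p = 0.832) and -0.22 ± 0.30 (adjusted p = 0.987), with overlapping libraries. Without trained Foxp3DTR+ library 3, 2 genes were called lower. The fibro-adipogenic progenitor markers summed to 3150 to 3275 CPM in trained Foxp3DTR+ mice, against 3036 to 3222 CPM in trained Foxp3DTR- mice, so their levels overlapped. On the fitted scale 7 of 11 were below 0 (median -0.22), as were 7 of 8 tendon markers (-0.32), 6 of 8 endothelial markers (-0.30) and 7 of 8 mural markers (-0.19), with 0 called in each list. The part of these cells in the collagen values was not tested. Between sedentary mice of the training experiment, edgeR called 0 of 32 genes, where 0.0477% of all genes tested were called, and DESeq2 called 0. At an unadjusted p under 0.05 there were 2, among 642 of all 12579 genes tested, and the smallest adjusted p was 0.837 (Col27a1). Col1a1, Col3a1, Col4a1 and Col6a1 stood there at 0.08, -0.05, 0.05 and -0.07, with adjusted p of 0.996 in each case.

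The difference of training responses, Foxp3DTR+ minus Foxp3DTR-, was below 0 for 24 of 32 genes, and edgeR called 0, where 0.27% of all genes tested were called. There were 5 at an unadjusted p under 0.05, among 873 of all 12579 genes tested, and 0 by DESeq2. The smallest adjusted p was 0.222 (Col5a1). Col1a1, Col3a1, Col4a1 and Col6a1 stood at -0.52 ± 0.37, -0.72 ± 0.39, -0.27 ± 0.43 and -0.45 ± 0.33 on the log2 scale, with adjusted p of 0.93, 0.806, 0.981 and 0.93. Without trained Foxp3DTR+ library 3, 1 gene was called. A difference between the genotypes in the training response was not detected with 3 libraries per group.

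In trained Foxp3DTR+ mice given anti-IFN-gamma or IgG, edgeR called 0 of the 30 collagen genes tested, where 1.35% of all genes tested were called. At an unadjusted p under 0.05 there were 4, among 1193 of all 11742 genes tested, and DESeq2 called 0 collagen genes. The smallest p was that of Col4a2, at 160, 210 and 246 CPM with anti-IFN-gamma, against 96, 93.6 and 186 CPM with IgG, which overlap (0.71 ± 0.22, adjusted p = 0.185). Col4a1 was 152, 185 and 188 CPM with anti-IFN-gamma, against 208, 237 and 194 CPM with IgG, without overlap (-0.28 ± 0.11, adjusted p = 0.376). The partner chains thus had values of opposite sign, and without IgG library 3, 1 gene was called higher and 1 lower.

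Col1a1 was 177, 287 and 379 CPM with anti-IFN-gamma, against 405, 385 and 180 CPM with IgG, and Col3a1 was 340, 568 and 592 CPM, against 761, 704 and 291 CPM, with overlap in both (-0.20 ± 0.27 and -0.23 ± 0.27, adjusted p 0.883 and 0.862). Col6a1 stood at -0.26 ± 0.17 (adjusted p = 0.664). In both genes the range within each group exceeded the difference between groups.

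In aged mice given anti-IFN-gamma or IgG, edgeR called 0 of the 26 collagen genes tested, where 0% of all genes tested were called, with 0 at an unadjusted p under 0.05, 0 by DESeq2 and an adjusted p of 1 for the gene with the smallest p, Col20a1. Col1a1 was 49.2 and 133 CPM with anti-IFN-gamma, against 61.7 and 49 CPM with IgG (0.73 ± 0.94), Col3a1 was 76.5 and 162 CPM, against 142 and 75 CPM (0.24 ± 0.95), and Col4a1 was 14.5 and 87.7 CPM, against 54.2 and 12.3 CPM (0.68 ± 1.09). Col6a1 stood at -0.16 ± 0.90. Each of the 4 genes had an adjusted p of 1. The standard errors of about 1 on the log2 scale leave most differences undetectable, and the wide length slopes of these libraries, whose part was not tested, stand beside them.

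**Figure D4:**
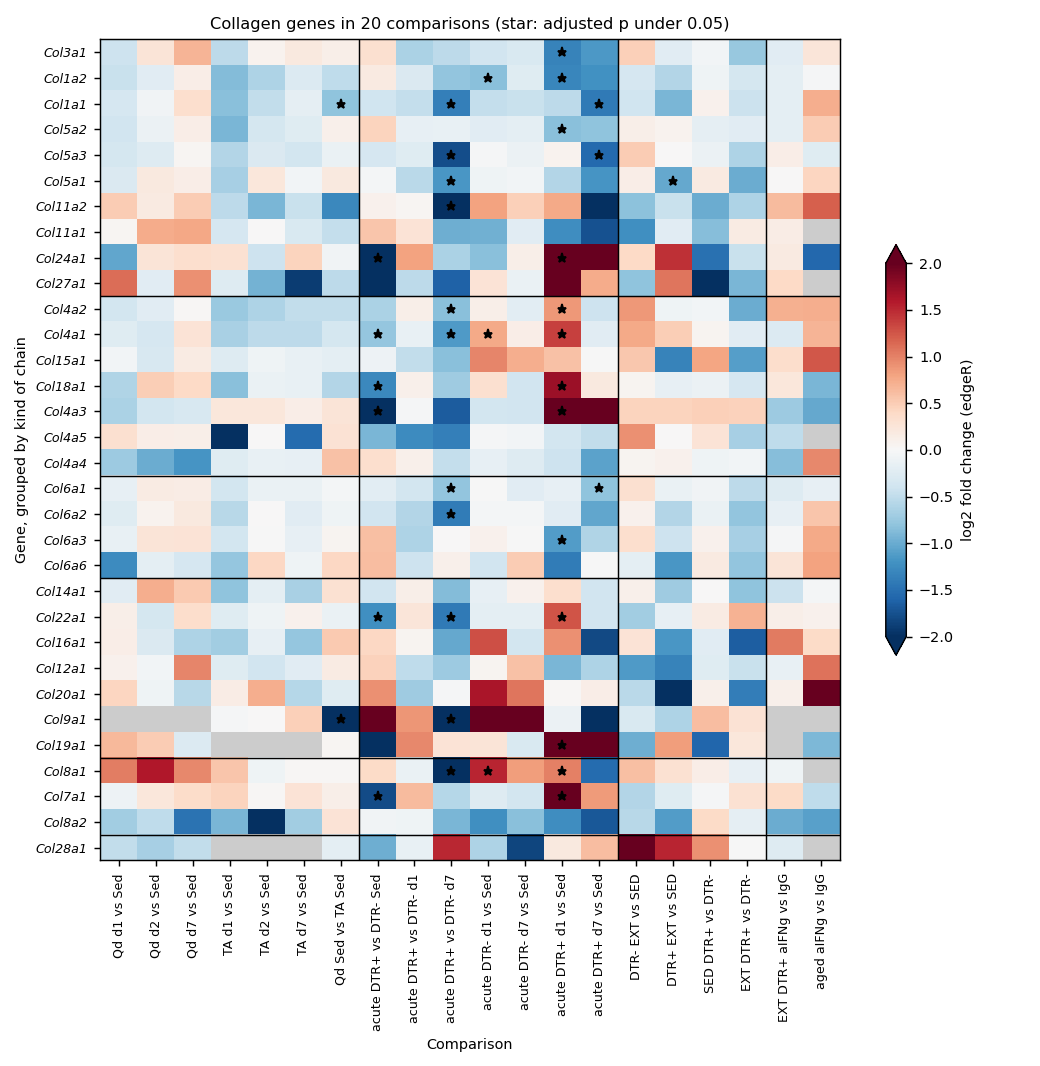
Log2 fold change (edgeR, colour scale limited to -2 to 2) of the 32 collagen genes, grouped by kind of chain, in the 20 comparisons of group pairs. Stars mark an adjusted p under 0.05 and grey cells genes that were not tested. The stars lie mostly in the columns of the acute experiment, with 11 lower in Foxp3DTR+ against Foxp3DTR- mice at day 7. There 14% of all genes tested were lower. With the length and GC trend removed 4 collagen genes were lower, where 10.9% of all genes were. No star lies in the columns of wild-type exercise responses, where at most 0.582% of all genes tested were called.

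Ratios of counts between chains varied between libraries, both for chains of the same type and for the type III chain Col3a1 over the type I chain Col1a2. The ratios were chosen after their values were seen and are described without a test. Col4a1 over Col4a2 was 1.68, 2.13 and 0.901 in trained Foxp3DTR+ mice, against 0.88, 0.59 and 1.07 in sedentary Foxp3DTR+ mice. In trained Foxp3DTR- mice it was 0.714, 0.852 and 0.764, against 0.749, 0.913 and 0.841 in sedentary Foxp3DTR- mice. With anti-IFN-gamma it was 0.952, 0.882 and 0.766, against 2.17, 2.53 and 1.04 with IgG. The 4 ratios from 1.68 upward were all in trained Foxp3DTR+ mice without anti-IFN-gamma, 2 in each experiment, while the other library of each group was at 0.901 or 1.04. In the remaining libraries other than aged ones the ratio was 0.524 to 1.24.

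Col3a1 over Col1a2 was 2.03, 2.18 and 2.07 in trained Foxp3DTR- mice, against 1.24, 1.21 and 1.09 in sedentary Foxp3DTR- mice, and 1.52, 1.51 and 1.66 in trained Foxp3DTR+ mice, against 0.968, 0.992 and 1.55 in sedentary Foxp3DTR+ mice. Trained Foxp3DTR- libraries lay above sedentary ones without overlap. In wild-type quadriceps the ratio was 1.2, 1.62 and 1.15 at rest, 1.42, 1.34 and 1.25 at day 1, 1.58, 2.08 and 1.78 at day 2 and 1.72, 1.89 and 2.04 at day 7. Within the type I chains, Col1a1 over Col1a2 was 0.411 and 0.41 at day 7 and 0.524 and 0.419 at rest in Foxp3DTR+ mice of the acute experiment, against 0.614 and 0.612 at day 7 and 0.634, 0.705 and 0.788 at rest in Foxp3DTR- mice, and it was 0.751 to 0.949 in the 6 libraries of day 1. The low ratios thus stood in the libraries with the steepest length slopes, and the part of that slope in them was not tested.

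Col28a1, also chosen after its values were seen, was 2.82 to 8.82 CPM in all 12 libraries of trained mice. It was 5.3, 8.82 and 4.02 CPM in trained Foxp3DTR+ mice, against 4.17, 1.27 and 0.595 CPM in sedentary Foxp3DTR+ mice, an overlap by 1 library (1.52 ± 0.60, adjusted p = 0.241). With anti-IFN-gamma it was 4.2, 2.82 and 5.76 CPM, against 6.67, 2.85 and 5.59 CPM with IgG, both groups being trained (-0.26 ± 0.39, adjusted p = 0.897). In the wild-type, acute and aged libraries it was 0 to 2.72 CPM.

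**Figure D5:**
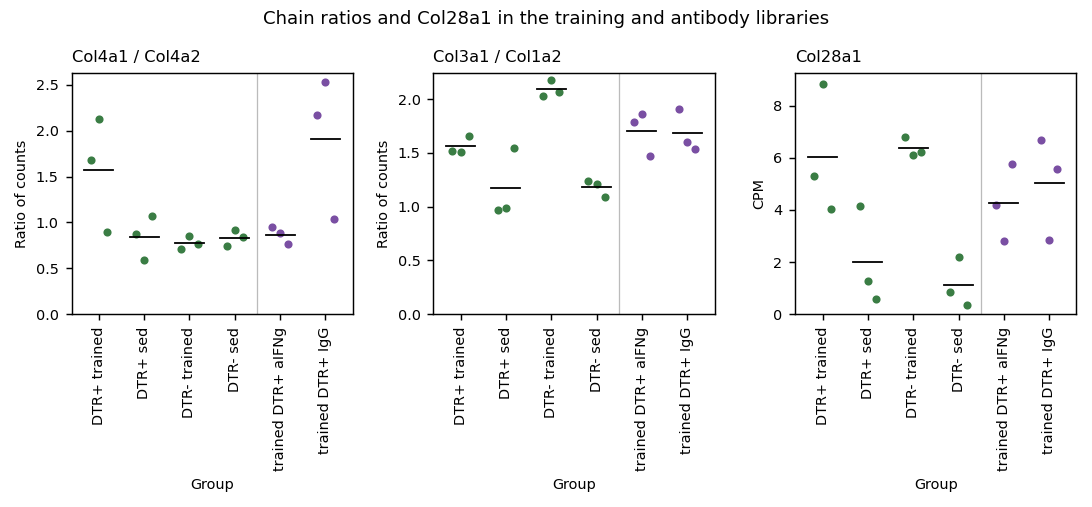
Count ratio of Col4a1 to Col4a2, count ratio of Col3a1 to Col1a2 and CPM of Col28a1 in each library (points, with group means as lines) of the training and antibody experiments. Col4a1 exceeded Col4a2 most in 2 of 3 trained Foxp3DTR+ libraries (1.68 and 2.13) and in 2 of 3 with IgG (2.17 and 2.53).

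The genes that process, cross-link, degrade and sense collagen were followed as lists. In the 6 wild-type exercise comparisons edgeR called 0 members of the processing (24 genes), cross-linking (5), breakdown (13), receptor (8) and TGF-beta (9) lists. At day 7 in the acute experiment, Foxp3DTR+ against Foxp3DTR-, where 11.3% of all genes tested were higher and 14% lower, 0 of 23 processing genes tested were called higher and 6 lower, with a median log2 fold change of -0.67 against -0.10 over all genes. They were led by Plod1, a lysyl hydroxylase (-1.52 ± 0.25, adjusted p = 0.000166), and P4hb, the beta subunit of prolyl 4-hydroxylase (-0.86 ± 0.16, adjusted p = 0.000372). With the length and GC trend removed, 0 were called higher and 3 lower, Plod1 (-1.12) and P4hb (-0.44) among them, and the median was -0.44 against -0.13 over all genes. Over all genes tested 8.15% were then higher and 10.9% lower, so the lower share of the list lay near that background.

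Timp3, a metalloproteinase inhibitor (-2.15 ± 0.36, adjusted p = 0.000184), and Mmp14, a collagenolytic membrane protease (-2.98 ± 0.67, adjusted p = 0.00231), led 3 lower and 0 higher of 11 breakdown genes at day 7, and both passed with the trend removed (-2.23 and -2.50). Loxl1, a cross-linking oxidase, was 1 of 5 lower (-1.22 ± 0.36, adjusted p = 0.015) and did not pass with the trend removed (-0.41, adjusted p = 0.411). Of 8 receptors 2 were higher, Itga1 (1.05 ± 0.32, adjusted p = 0.0184) and Itgb1 (0.65 ± 0.20, adjusted p = 0.0207), which together form a collagen-binding integrin. Neither passed with the trend removed (adjusted p = 0.0521 and 0.0579) or with library totals (0.0764 and 0.188). Of 8 TGF-beta genes 1 was higher and 2 lower, led by Tgfb3 (-1.51 ± 0.24, adjusted p = 9.14e-05), and these 3 passed with the trend removed as well.

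In sedentary mice of the acute experiment, where 12.1% of all genes tested were higher and 14.5% lower, the same contrast called 0 of 23 processing genes higher and 7 lower, with Plod1 at -1.39 ± 0.24 (adjusted p = 0.000204) and Colgalt1, a collagen galactosyltransferase, at -2.23 ± 0.39 (adjusted p = 0.000225). Plod1 (-0.98), Colgalt1 (-1.61) and Mia3 were the 3 that remained lower with the trend removed, where 8.53% of all genes tested were higher and 11% lower. Breakdown genes gave 1 higher (Fap) and 1 lower (Timp3) of 11, of which Timp3 passed with the trend removed (-1.32) and Fap did not (adjusted p = 0.0564). Receptors gave 3 higher and 0 lower of 8, led by Ddr2 (1.00 ± 0.25, adjusted p = 0.00601). With the trend removed Ddr2 was the 1 receptor called (0.68, adjusted p = 0.0415), and with library totals 0 receptors were higher and 2 lower. The TGF-beta list gave 0 higher and 1 lower of 8 (Tgfb3, -1.09 ± 0.22; -0.61 and 0.0484 with the trend removed).

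At day 1 against rest in Foxp3DTR+ mice, which shares the sedentary libraries, 6 of 23 processing genes were higher and 1 lower, where 24.3% of all genes tested were higher and 18.1% lower, so the higher share lay near that background. They were led by Colgalt1 (3.16 ± 0.39, adjusted p = 1.72e-06) and Plod1 (1.55 ± 0.24, adjusted p = 2.47e-05), which stood at 2.59 and 1.05 and passed with the trend removed. The list then had 4 higher and 2 lower, where 21.4% of all genes tested were higher and 15.4% lower. Timp3 was higher (3.29 ± 0.36) and Timp2 (-1.16 ± 0.17) and Fap (-1.63 ± 0.37) lower among 11 breakdown genes, and these 3 passed with the trend removed and with library totals. Loxl1 (0.86 ± 0.32), the collagen receptor kinase gene Ddr1 (1.51 ± 0.51) and Tgfb3 (1.34 ± 0.22) were each the 1 higher gene of their lists. With the trend removed Tgfb3 passed (0.88), whereas Loxl1 (0.04) and Ddr1 (0.65) did not.

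In Foxp3DTR- mice at day 1 against rest, where 8.16% of all genes tested were higher and 8.24% lower, Timp3 was higher (1.94 ± 0.27, adjusted p = 0.000129) and Timp2 lower (-1.05 ± 0.15, adjusted p = 0.000151), Lox, the lysyl oxidase, was higher (1.14 ± 0.28, adjusted p = 0.00914), and 0 of 23 processing genes were called. Timp3, Timp2 and Lox passed with the trend removed too (1.84, -1.12 and 1.03). Of the 23 processing genes 2 were then lower, where 5.9% of all genes tested were higher and 5.65% lower. In trained against sedentary Foxp3DTR+ mice, 2.21% of all genes tested were called in either direction and 1.23% lower. Of 23 processing genes, 21 had log2 fold changes below 0, with a median of -0.46 against -0.04 over all genes. The 1 called was Serpinh1, the collagen chaperone HSP47, at 19.9, 19 and 23.2 CPM, against 28, 38.4 and 77.1 CPM (-1.22 ± 0.31, adjusted p = 0.0453). The receptor gene Tgfbr2 was also lower (-0.97 ± 0.23, adjusted p = 0.0295). In Serpinh1 and Tgfbr2 the highest value was that of library 3 of the uneven sedentary group. Refits without 1 library are not given for these 2 genes, so whether their calls rest on that library is left undecided. With anti-IFN-gamma against IgG, 1.35% of all genes tested were called. The inhibitory collagen receptor gene Lair1 was the 1 called member of these lists there, at 0.504, 0 and 1.02 CPM, against 5.19, 3.29 and 5.21 CPM (-3.15 ± 0.64, adjusted p = 0.023). Lair1 is expressed by immune cells, and the 8 macrophage markers summed to 207 to 319 CPM with anti-IFN-gamma, against 355 to 393 CPM with IgG, with 8 of 8 log2 fold changes below 0 (median -0.48) and C1qb called lower. Their part in the value of Lair1 was not tested.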

How the data were processed

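Whole-muscle polyA RNA from 61 libraries was measured, each made from 2 ng of RNA of frozen muscle homogenized in TRIzol, per the labels' protocols. The authors deposited 1 table of raw counts per gene; STAR 2.7.3a, featureCounts (version not given in the sources used here) and build mm10 are named, per the submitters' processing notes. For the annotation and the strand setting of counting, the sources used here give nothing.

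From these counts, 1 model per experiment was run in edgeR 4.0.16 (R 4.3.3): TMM scaling, genes kept by filterByExpr (minimum count 10, minimum total 15), quasi-likelihood tests, and Benjamini-Hochberg adjustment over all genes tested, called under 0.05. CPM are counts scaled by a library's total, without TMM factors. The length slope is that of log2(CPM + 0.5) on log2 transcript length over genes with a mean above 5 CPM. Lengths came from GENCODE M21 (53009 symbols matched, 98.6 to 98.9% of tested genes with a length). The length and GC trend was a spline of 4 degrees of freedom per library, used as an offset. Intervals and floors (3 counts) cover counting error only. The scripts were tested on simulated data.

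Alternatives were DESeq2 1.42.0, its size factors in edgeR, no filter, a fit of only the groups compared, a replicate block, the trend removed, and each library left out. Library totals, a fit without 2 sedentary Foxp3DTR+ libraries of the training experiment, the tests of acute responses between genotypes and a crossed pairing of the aged mice were added after the data were seen. In the wild type the same animal gave both muscles, which pairs those libraries. The deviations of same-animal libraries had correlations of -0.05 to 0.08 over 12 pairs, and 19 of 24 libraries lay closest to their own number. No 2 libraries of a group agreed within sampling noise (56 pairs).

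Named were Col1a1, Col3a1, Col4a1 and Col6a1 in every comparison, the 6 called collagens with the smallest p or, with none called, the 1 with the smallest p, and for each list of related genes the counts and the 2 called members with the smallest p. Other genes were named after their values were seen. The members and the lists were chosen with earlier results of these data known.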

Additional observations from a re-analysis of the deposited data

Results flagged for a closer look

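Col7a1 and Col4a3 responded differently to acute exercise by genotype at day 1: the Foxp3DTR+ response minus the Foxp3DTR- response was 2.41 and 4.72 on the log2 scale and passed the edgeR test of the difference (adjusted p = 0.0038 and 0.029), a test added after the results were seen. These are 2 of 32 genes, where 15.3% of all genes tested were called. Col4a3 lost its call in 4 of 15 refits without 1 library, and in sedentary Foxp3DTR+ mice it rests on 3 counts. The genotypes were not told apart at day 1 (0 collagen genes called), while in sedentary mice both genes were lower in Foxp3DTR+ than in Foxp3DTR- quadriceps. The sedentary Foxp3DTR+ libraries are among those that stood apart in length slope and mitochondrial share, whose part was not tested beyond the values with the trend removed.

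At day 7 against rest, Col8a1 had a log2 fold change of -1.54 in Foxp3DTR+ mice and 0.83 in Foxp3DTR- mice, with every library of day 7 below all at rest in Foxp3DTR+ mice and above all at rest in Foxp3DTR- mice. Col9a1 had fitted values of -6.66 in Foxp3DTR+ mice and 4.22 in Foxp3DTR- mice; its counts were 0 and 0 at day 7, against 1 and 15 at rest, in Foxp3DTR+ mice, and 12 and 20 at day 7, against 0, 3 and 0 at rest, in Foxp3DTR- mice, so the first fitted value depends on the prior count and is no bound. The differences themselves did not pass the edgeR test (adjusted p = 0.143 for Col8a1 and 0.134 for Col9a1).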

How the results depend on the processing

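Counts of collagen genes called moved by over 1.5 times as follows, and the cause was not tested. Without a filter on low counts edgeR called 2 genes in wild-type quadriceps at day 1, 1 at day 2 and 1 at day 7, 7, 4 and 1 in tibialis anterior at these days, 4 between sedentary muscles, 7 in Foxp3DTR+ mice at day 7 against rest, 2 in trained against sedentary Foxp3DTR- mice, 4 in trained against sedentary Foxp3DTR+ mice, 4 between trained genotypes, 1 with anti-IFN-gamma against IgG, 1 for the difference between muscles at day 7 and 1 for the difference of training responses. DESeq2 called 1 in quadriceps at day 2, 7 and 1 in tibialis anterior at days 1 and 2, 5 in Foxp3DTR+ mice at day 7 against rest, 1 and 2 after training in Foxp3DTR- and Foxp3DTR+ mice, 2 between trained genotypes and 1 for the difference between muscles at day 7. With only the groups compared in the fit, 1 was called in quadriceps at day 7, 3 in tibialis anterior at day 1, 4 between acute genotypes at day 7, 5 in Foxp3DTR- mice at day 1, 0 in Foxp3DTR+ mice at day 7 against rest, 3 and 0 after training in Foxp3DTR- and Foxp3DTR+ mice and 3 between trained genotypes.

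With the length and GC trend removed, 3 and 4 were called between acute genotypes at rest and at day 7, and 5 for the added difference of day 1 responses (2 higher, 3 lower). Col4a2 at day 1 against rest in Foxp3DTR+ mice then reversed to -0.12, and to -0.06 with the replicate block and the trend removed. With library totals 0 were called in Foxp3DTR+ mice at day 7 against rest, 0 after training in Foxp3DTR+ mice and 7 for the difference of day 1 responses. Without sedentary Foxp3DTR+ libraries 2 and 3 of the training experiment, 0 were called after training.

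Outside the wild type the labels do not say what a shared replicate number stands for, so no pairing was assumed. Correlations of deviations between same-numbered libraries were -0.19 to 0.07 in the acute experiment, -0.22 to 0.19 in training (3 of 18 pairs over 0.1) and -0.10 to -0.02 with antibody, where 3 of 15, 2 of 12 and 0 of 6 libraries lay closest to their own number. In the aged mice it was -0.77, and with the numbers crossed between the 2 groups, a pairing chosen after the data were seen, 0 genes were called, as with the block as numbered. With the replicate block, 1 was called in Foxp3DTR+ mice at day 7 against rest and 1 with anti-IFN-gamma against IgG; with the block and the trend removed, 3 and 1 were called between acute genotypes at rest and at day 7, 0 in Foxp3DTR+ mice at day 7 against rest and 0 after training in Foxp3DTR+ mice. The wild-type muscles with the animal as block are given with the result, and wild-type days had different animals.

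With 1 library left out, counts ranged over 0 to 1 in quadriceps at day 7, 0 to 2 in tibialis anterior at day 2, 0 to 1 between sedentary muscles, 2 to 8 and 4 to 16 between acute genotypes at rest and day 7, 2 to 3 and 9 to 14 at day 1 against rest in Foxp3DTR- and Foxp3DTR+ mice, 0 to 9 at day 7 against rest in Foxp3DTR+ mice, 0 to 3 after training in Foxp3DTR+ mice, 0 to 2 between trained genotypes, 0 to 2 with anti-IFN-gamma, 0 to 1 for the difference of training responses, and 1 to 6 and 0 to 4 for the added differences at days 1 and 7. In the other comparisons the count stayed at 0. Of the called values of named genes, DESeq2 and its size factors each kept 26 of 26, the replicate block 26 of 28, no filter 25 of 26, library totals 24 of 28, a fit of only the groups compared 18 of 26, the trend-removed fit 16 of 28, the block with the trend removed 10 of 26, and the refits without 1 library 119 of 158. Low counts limit Col9a1, Col19a1, Col20a1, Col27a1 and Col28a1, whose median counts over the libraries were 6 to 11.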

Other observations

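Col2a1, the cartilage fibrillar chain, fell below the rule for description and is given here after its values were seen. In Foxp3DTR+ mice at day 7 of the acute experiment it was 0.111 and 0.13 CPM, against 22.8 and 1.11 CPM in Foxp3DTR- mice, 2 counts against 114, a count ratio of 0.0142 (exact 95% interval 0.0017 to 0.0526, for counting error only). Most of the Foxp3DTR- counts came from 1 library. In Foxp3DTR+ mice it was 5.63, 0.829 and 5.68 CPM at day 1, against 0 and 0.374 CPM at rest, a count ratio of 23.1 (7.76 to 113).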
